A study of Mus musculus with 4 samples.

Results

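A small set of narrow H3K4me3 regions in embryonic mouse forebrain carried H3K36me3 between their own edges. Of 7992 H3K4me3 regions on chromosomes 1 to 19, 7716 were 1-3 kb wide, and 231 of these (2.99%, exact binomial 95% interval 2.62 to 3.40) met both H3K36me3 thresholds. These 231 regions, the members, were picked by the tags inside them in 4 libraries. An H3K4me3 region was a run of 1 kb bins with at least 20 ChIP tags and at least 4 times the scaled input, joined over gaps of at most 1 bin. A member held at least 15 H3K36me3 ChIP tags inside and a ratio to scaled input of at least 1.5, after adding 1 tag to each side of the ratio.

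The libraries came from forebrain of CD1 embryos, an outbred strain, at embryonic day 11.5. Tissue was pooled, 36 forebrain pieces to a library, and no genotype, allele or treatment is given in the labels. The H3K4me3 ChIP (10 microlitres of antibody) and its input went through 8 cycles of whole-genome amplification, and the H3K36me3 ChIP (15 microlitres) and its input did not. Each of these 4 groups was 1 library, so mark and amplification cannot be told apart, every test compares libraries, and all intervals cover counting error only. Pooled tissue mixes cell types and both alleles, so tags of both marks in a region do not place them on the same nucleosome, allele or cell. Tags used ranged from 2513019 in the amplified input to 23110768 in the unamplified input, with 7606197 in the H3K4me3 ChIP and 10466543 in the H3K36me3 ChIP. Positions are in the mouse build mm8, and gene annotation of that build was not used here, so regions are named by coordinates and no gene, exon or promoter is assigned.

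H3K4me3 is placed by the SET1 and MLL methyltransferases around the start sites of active and poised genes, often over CpG-rich DNA. H3K36me3 is placed by SETD2, which travels with elongating RNA polymerase II, and so builds up along the bodies of transcribed genes. Around an ordinary start site H3K36me3 is low where H3K4me3 is high, and it rises downstream. Start sites that lie within another transcribed gene, and loci whose alleles differ in activity, are known settings in which both marks can be recovered from the same stretch of DNA.

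The members stood out from the other narrow regions on the values that chose them, which are given as a description only. Inside members the H3K36me3 ChIP held from 15 to 492 tags, with a median of 54, and the other 7485 narrow regions held a median of 2. The unamplified input held a median of 49 tags inside members and 37 inside the others. The ratio of H3K36me3 to scaled input had a median of 2.45 in members (interquartile range 1.85 to 3.68) and 0.175 in the others (0.104 to 0.302). A ratio of 1 was not the background of this library, since the ratio was 0.245 in the emptier 10 kb bins of the genome. Of all narrow regions, 1696 held no H3K36me3 tag and 7280 had a ratio below 1. Both thresholds mattered, because 378 narrow regions had at least 15 tags but too low a ratio, and 26 had the ratio but too few tags. The share of members was higher at greater width, from 1.51% of regions of 1 kb (62 of 4111) to 3.94% of those of 2 kb (106 of 2692) and 6.90% of those of 3 kb (63 of 913). The minimum of 15 tags was the same at every width, so wider regions could meet it with fewer tags per kb.

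**Figure D1:**
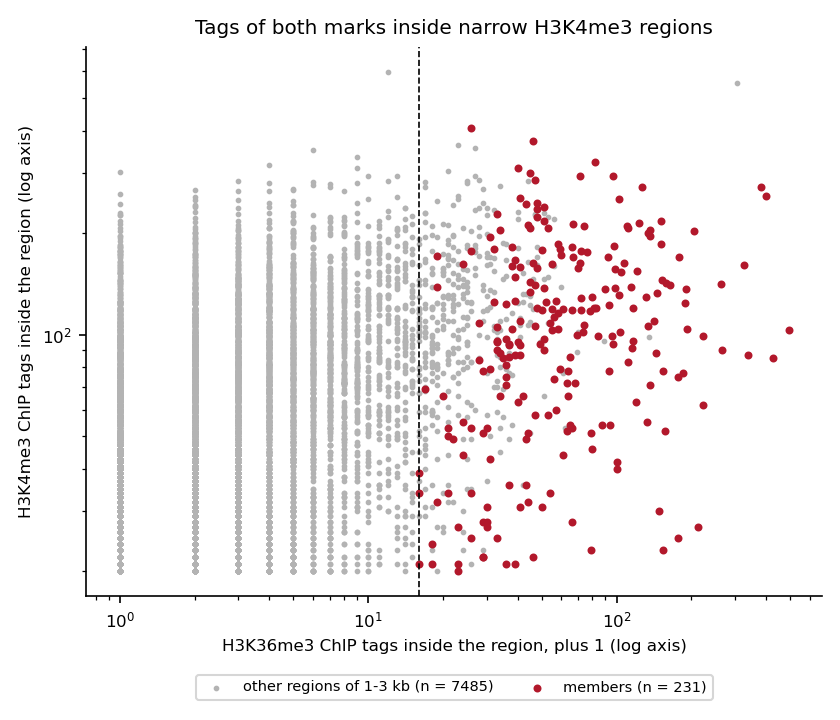
Each point is an H3K4me3 region of 1-3 kb, with its H3K36me3 ChIP tags plus 1 on the x axis and its H3K4me3 ChIP tags on the y axis, both on log axes. Members (red, n = 231) lie at or to the right of the dashed line, which marks 15 H3K36me3 tags, and spread over the height of the grey cloud of 7485 other regions.

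The ratios, given in this paragraph with 1 tag added to each side, ran through the threshold without a gap. The members closest to it lay on chromosome 1 (162870001 to 162873000, 40 H3K36me3 ChIP tags and 58 input tags, ratio 1.503), chromosome 13 (100543001 to 100545000, 38 and 55 tags, 1.505) and chromosome 2 (25045001 to 25048000, 68 and 99 tags, 1.505). The nearest regions left out lay on chromosome 12 (111985001 to 111988000, 68 and 101 tags, 1.476), chromosome 16 (8551001 to 8554000, 59 and 88 tags, 1.468) and chromosome 5 (65669001 to 65671000, 41 and 61 tags, 1.467). Their counting intervals overlap those of the members just inside. A ratio under 2 was found in 77 members, while 55 reached at least 4 and 12 at least 8. With the input scaled on the emptier 10 kb bins in place of library totals, 598 regions met the rule, all 231 members among them.

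The member with the most H3K36me3 tags over input spanned 3 kb of chromosome 2 (157251001 to 157254000). It held 103 H3K4me3 ChIP tags, 0 amplified input tags, 492 H3K36me3 ChIP tags and 85 unamplified input tags. The H3K36me3 ratio inside, here and for each member named below without the added tag, was 12.8 (10.1 to 16.3). Flanks were the windows that began 1 kb outside an edge and ended 11 kb outside it. Here the lower flank, at smaller coordinates, had a ratio of 4.27 (3.63 to 5.03) and the higher flank one of 1.01 (0.783 to 1.31). H3K36me3 was denser inside this region than in either flank, and another H3K4me3 region lay 2 kb away.

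The next regions by H3K36me3 tags over input each had a pattern of their own. On chromosome 10 (79552001 to 79555000) the member held 257 H3K4me3, 4 amplified input, 400 H3K36me3 and 97 unamplified input tags. Its H3K36me3 ratio was 9.10 (7.28 to 11.5) inside, 1.95 (1.66 to 2.29) in the lower flank and 7.05 (6.23 to 8.00) in the higher flank. The chromosome 17 member (35444001 to 35447000) held 273 H3K4me3, 3 amplified input, 382 H3K36me3 and 84 unamplified input tags. There the ratio inside was 10.0 (7.91 to 12.9), between flanks of 5.81 (4.93 to 6.88) and 6.93 (5.70 to 8.48) that did not differ by Fisher's exact test (adjusted p = 0.198). Both regions sat in H3K36me3 that ran on to either side.

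Members on chromosomes 4 and 5 lay at a border of H3K36me3. The chromosome 4 region (153805001 to 153807000) held 87 H3K4me3, 1 amplified input, 337 H3K36me3 and 68 unamplified input tags, a ratio of 10.9 (8.41 to 14.4). Its lower flank stood at 0.351 (0.252 to 0.478) and its higher flank at 6.75 (5.94 to 7.67). The chromosome 5 region (143170001 to 143172000) held 160 H3K4me3, 1 amplified input, 325 H3K36me3 and 68 unamplified input tags, a ratio of 10.6 (8.10 to 13.9). Its flanks were the mirror image, 4.99 (4.23 to 5.91) below and 0.167 (0.0955 to 0.273) above.

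Of the remaining leaders, the chromosome 12 member (112118001 to 112120000) held 90 H3K4me3, 1 amplified input, 266 H3K36me3 and 80 unamplified input tags. Its ratio of 7.34 (5.70 to 9.55) inside exceeded both flanks, at 2.49 (2.08 to 2.99) and 2.04 (1.71 to 2.43). The chromosome 15 member (80082001 to 80085000) held 141 H3K4me3, 3 amplified input, 263 H3K36me3 and 103 unamplified input tags. Here the ratio inside, 5.64 (4.47 to 7.15), lay between a lower flank of 7.73 (6.51 to 9.23) and a higher flank of 2.05 (1.69 to 2.49). A chromosome 2 member (77716001 to 77718000) held 85 H3K4me3, 5 amplified input, 426 H3K36me3 and 155 unamplified input tags, a ratio of 6.07 (5.04 to 7.34). Its unamplified input stood at 8.15 times the genome mean, the highest of any member. Without the 5 members whose unamplified input exceeded 5 times the mean, 226 members were left and the shares with both, 1 and neither flank called were 24.8%, 64.2% and 11.1%.

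The highest ratios inside belonged to regions of 1 kb with few H3K4me3 tags. On chromosome 2 (152378001 to 152379000) a member held 27 H3K4me3, 0 amplified input, 212 H3K36me3 and 21 unamplified input tags, a ratio of 22.3 (14.2 to 36.8), with flanks at 8.65 (7.51 to 9.99) and 3.90 (3.34 to 4.55). The chromosome 13 region 58136001 to 58137000 held 36 H3K4me3, 0 amplified input, 36 H3K36me3 and 4 unamplified input tags. Its ratio of 19.9 rested on those 4 input tags and had an interval of 7.12 to 76.8. The input there stood at 0.420 times its genome mean.

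H3K4me3 ChIP tags were denser in the members of 2 and 3 kb than in other regions of their width. The median was 51.5 ChIP tags per kb in members (interquartile range 34 to 71.8) and 39 in the other narrow regions (29 to 53). Regions of 1 kb showed no such gap, with a median of 35 in members and 35 in the others. At 2 kb the medians were 57.3 and 43, and at 3 kb 52.3 and 43.3. The median H3K4me3 ratio to scaled input was 18.4 in members and 16.9 in the others at 2 kb, 25.2 and 18.9 at 3 kb, and 17.0 and 21.0, the other way round, at 1 kb. Among regions of 2 kb, 7.99% (6.05 to 10.3) of the 663 with the most H3K4me3 tags were members, against 2.46% (1.44 to 3.91) of the 691 with the fewest, and the groups between held 1.83% and 3.52%, so the share did not rise at every step. For 3 kb these shares were 11.5% (7.62 to 16.3) of 227 and 5.19% (2.71 to 8.90) of 231 regions, with 5.68% and 5.31% between. Across the 231 members the density of H3K4me3 and the H3K36me3 ratio were unrelated as a description (Spearman 0.0310, Pearson of log2 values 0.00718, all points from the same libraries).

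Of the 5 members with the densest H3K4me3, 3 held fewer H3K36me3 tags than the median member. On chromosome 17 (28760001 to 28762000) a member held 407 H3K4me3, 0 amplified input, 25 H3K36me3 and 28 unamplified input tags. A chromosome 18 member (61681001 to 61683000) held 372, 1, 45 and 27 tags in the same order. Both had H3K36me3 on the higher side alone, at 13.3 (10.6 to 16.8) and 7.98 (5.68 to 11.4), against 0.344 and 0.226 on the lower side. The chromosome 13 member 58410001 to 58411000 held 171 H3K4me3, 0 amplified input, 18 H3K36me3 and 24 unamplified input tags, with H3K36me3 called on both sides, at 17.0 (12.1 to 24.5) below and 2.82 (2.17 to 3.65) above. On chromosome 7 (3307001 to 3309000) the tags were 294, 4, 96 and 35, with a called lower flank of 2.51 (1.96 to 3.23). On chromosome 10 (126466001 to 126468000) they were 252, 2, 101 and 111, with H3K36me3 called on both sides (4.17 and 4.93).

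H3K36me3 was next tested in the flanks, which the choice of members did not use, although they adjoin it. Each flank was compared with its input by a one-sided exact binomial test, with Benjamini-Hochberg adjustment over all flanks of the 7992 regions. A call needed a ratio of at least 1.5 and an adjusted p under 0.05. Over all H3K4me3 regions 47.9% of flanks were called, over the other narrow regions 47.4%, and over members 57.6% (266 of 462, 52.9 to 62.1). Exactly 1 flank was called at 146 members, or 63.2% (56.6 to 69.4), against 57.9% of all H3K4me3 regions and 57.7% of the other narrow ones, a share near the background. Both flanks were called at 60 members (26.0%, 20.4 to 32.1), against a background of 18.9% (18.5% in the other narrow regions). Neither flank was called at 25 (10.8%, 7.13 to 15.6), against 23.2% (23.8%). Thus 89.2% of members (84.4 to 92.9) had a called flank, against 76.2% of the other narrow regions (75.2 to 77.2). In the class with 1 called flank it was the lower side 70 times and the higher side 76 times. With the input scaled on the emptier bins instead, 598 regions were members and 50.8% of them had both flanks called. The share over all H3K4me3 regions at that scale is not given here, so 50.8% cannot be set against 18.9%.

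**Figure D2:**
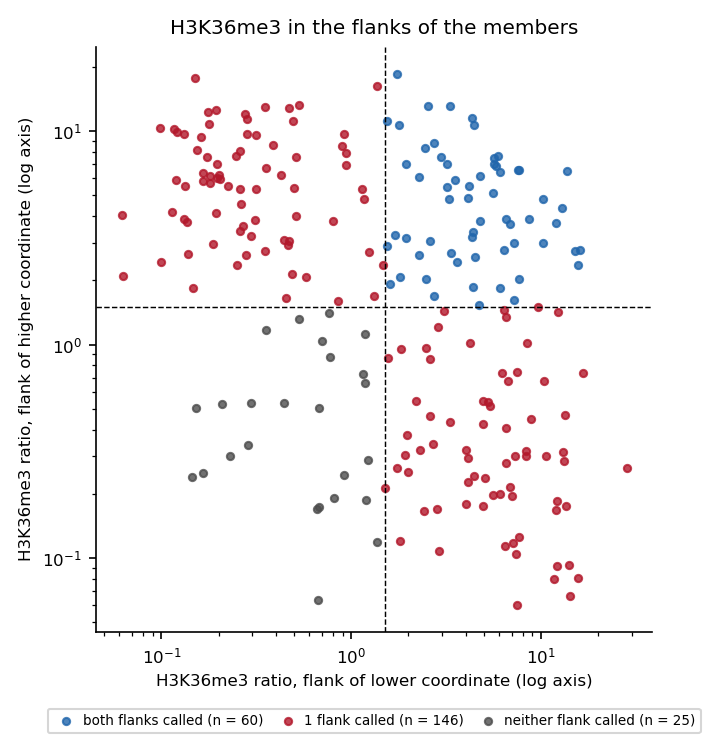
Each point is a member, placed by its H3K36me3 ratio to scaled input, with 1 tag added to each side, in the flank of lower coordinate (x axis) and of higher coordinate (y axis), both log axes. Dashed lines mark the ratio of 1.5, and the 146 members with 1 called flank fill the upper left and lower right corners, apart from the 60 with both and the 25 with neither.

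The flanks of a member usually differed from each other. A two-sided Fisher's exact test of ChIP and input tags in the lower against the higher flank called 205 of 231 members at an adjusted p under 0.05, or 88.7% (83.9 to 92.5), against 85.3% of all H3K4me3 regions and 85.3% of the other narrow ones. This share too was close to the background. Among members with 1 called flank, 145 of 146 had flanks that differed. The same flank tags set this class, so that count follows in large part from the class. Their richer flank had a median ratio of 5.95 (interquartile range 3.13 to 8.77) and their poorer flank one of 0.282 (0.175 to 0.507). In the other narrow regions with 1 called flank the medians were 4.07 and 0.259.

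The steepest contrasts paired many H3K36me3 tags on the richer side with very few on the poorer side. On chromosome 17 the member 31386001 to 31387000 held 69 H3K4me3, 2 amplified input, 16 H3K36me3 and 7 unamplified input tags. Its lower flank held 1358 H3K36me3 and 209 input tags and stood at 14.3 (12.4 to 16.7), while its higher flank held 3 and 131 and stood at 0.0506 (0.0103 to 0.151). The chromosome 11 member (33061001 to 33063000) held 90 H3K4me3, 0 amplified input, 32 H3K36me3 and 32 unamplified input tags. It went from 16.8 (11.4 to 25.4) below, with 30 input tags, to 0.0552 (0.00657 to 0.206) above, with 2 H3K36me3 tags. At the chromosome 12 member (81678001 to 81680000), with 58, 2, 52 and 66 tags, the step was from 14.2 (12.2 to 16.6) to 0.0808 (0.0292 to 0.180). The low values rested on 3, 2 and 6 H3K36me3 tags, and their intervals are wide.

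Around members with 1 called flank, high H3K36me3 began closer to the H3K4me3 edge than around other such regions. The rule chose members by H3K36me3 up to that edge, so this is a description. Farther out the members also stood higher, with 6.48 against 4.95 in the sixth kb on the richer side. In the first kb beyond the edge on the richer side, the pooled H3K36me3 ratio was 8.21 around members and 1.84 around the 4318 other narrow regions of that class. It peaked in the second kb around members, at 8.86, and stepped down to 4.69 in the eleventh. Around the others it rose from 3.78 in the second kb to 5.10 in the seventh and stood at 4.73 in the eleventh. In ChIP tags alone, members had 70.4 per kb and the others 11.7 in the first kb. In the eleventh kb members were still higher by tags, at 36.3 and 31.1 per kb, where the ratios were nearly equal. These pooled values have no replicate, and the first kb adjoins the window by which the members were chosen.

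On the poorer side the same members fell away to a low level. The ratio was 0.809 in the first kb, 0.650 in the second and 0.308 in the sixth. The other regions with 1 called flank stood at 0.223, 0.421 and 0.352 in those places. From the third to the tenth kb both sets stayed between 0.308 and 0.478. The sides were named richer and poorer from the ratio over 1 to 11 kb, so a difference between them there follows from the naming, while the first kb took no part in it.

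**Figure D3:**
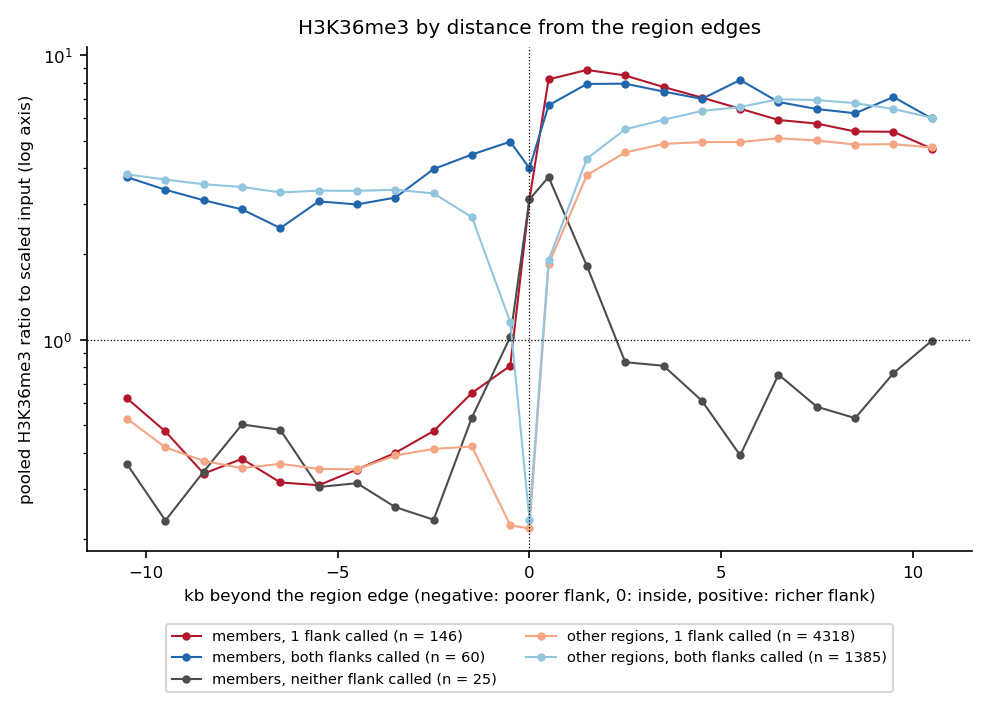
Points give the H3K36me3 ratio to scaled input, pooled over regions, in steps of 1 kb beyond the poorer edge (left), inside the region (at 0) and beyond the richer edge (right), on a log axis. In the first kb on the richer side the members with 1 called flank stand at 8.21 and the other regions with 1 called flank at 1.84, and by the eleventh kb both are at 4.69 to 4.73.

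Members with both flanks called lay in continuous H3K36me3. Their pooled ratio was 4.0 inside, 6.66 in the first kb on the richer side and 4.96 on the poorer side. The other 1385 narrow regions of that class stood at 0.233 inside, 1.90 and 1.15 beside it, and 6.99 and 3.29 in the seventh kb. The trough that H3K4me3 regions within H3K36me3 otherwise showed was shallow at these members, which were chosen by the ratio inside. Other H3K4me3 regions lay close by, at a median distance of 14 kb. Leaving out regions with another H3K4me3 region within 11 kb, both flanks were called at 31 of 165 members (18.8%, 13.1 to 25.6) and at 15.7% (14.9 to 16.7) of the other narrow regions so treated, so the excess in both flanks was within the counting interval. In the same comparison 1 flank was called at 69.1% of members (61.4 to 76.0) and 59.1% of the others. Neither flank was called at 12.1% (7.56 to 18.1) and 25.2%. The members' intervals, which cover counting error only, leave out the others' shares here. Flanks adjoin the window that chose the members, so these shares are not independent of that choice and are a description.

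With the input scaled by library totals, pooled H3K36me3 at the 25 members with neither flank called fell below a ratio of 1 by the third kb beyond either edge. Their pooled ratio was 3.11 inside, 3.73 in the first kb on the richer side, 1.82 in the second and 0.834 in the third. On the poorer side it was 1.02 and 0.533 in the first and second kb. The ratio was below 1 from the third kb outward on the richer side. This class had 33 H3K4me3 tags per kb at the median, the same as the 1782 other narrow regions with neither flank called. At 15 of the 25 both flank ratios were below 1, and at 16 the flanks differed by Fisher's exact test. A ratio of 1 is above the 0.245 of the emptier bins. With the input scaled on those bins, neither flank was called at 1.34% of 598 regions, so this class depends on the scale.

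Members with neither flank called included a 3 kb region on chromosome 13 (60183001 to 60186000). It held 99 H3K4me3, 1 amplified input, 222 H3K36me3 and 61 unamplified input tags, and its next H3K4me3 region was 350 kb away. Its ratio of 8.03 (6.03 to 10.8) lay between flanks of 1.16 (0.844 to 1.57) and 0.724 (0.493 to 1.04). Both flanks stood above the 0.245 of the emptier bins. Another chromosome 13 member of this class, 51859001 to 51862000, held 78, 0, 153 and 95 tags in the same order. Its ratio was 3.56 (2.73 to 4.64), with flanks at 0.221 (0.132 to 0.350) and 0.294 (0.191 to 0.438). On chromosome 2 the region 71344001 to 71347000 held 77 H3K4me3, 3 amplified input, 185 H3K36me3 and 83 unamplified input tags, a ratio of 4.92 (3.78 to 6.45). In these regions H3K36me3 was higher inside than in either flank.

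Further members of this class differed in their flanks. The chromosome 1 member (135893001 to 135896000) held 199 H3K4me3, 1 amplified input, 133 H3K36me3 and 82 unamplified input tags, a ratio of 3.58 (2.70 to 4.77). Its lower flank, at 1.37 (1.08 to 1.74), passed the test (adjusted p = 0.0104 by the exact binomial test with Benjamini-Hochberg adjustment) but not the ratio of 1.5, and its higher flank stood at 0.109 (0.0514 to 0.204). The chromosome 11 member (120003001 to 120006000) held 273, 4, 126 and 56 tags, a ratio of 4.97 (3.60 to 6.93), with 0.656 (0.506 to 0.842) below and 0.159 (0.0803 to 0.285) above.

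H3K36me3 inside members was seldom lower than on both sides, while inside most other narrow regions it was. In ChIP tags per kb, 108 of 231 members (46.8%) were higher inside than in both flanks, 106 (45.9%) lay between them and 17 (7.36%) were below both. Of the other narrow regions 3.57% were above both and 59.5% below both. Relative to scaled input, which rises inside H3K4me3 regions, 62 members were above both flanks, 139 between and 30 below both. The level inside chose the members, so these counts are a description.

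**Figure D4:**
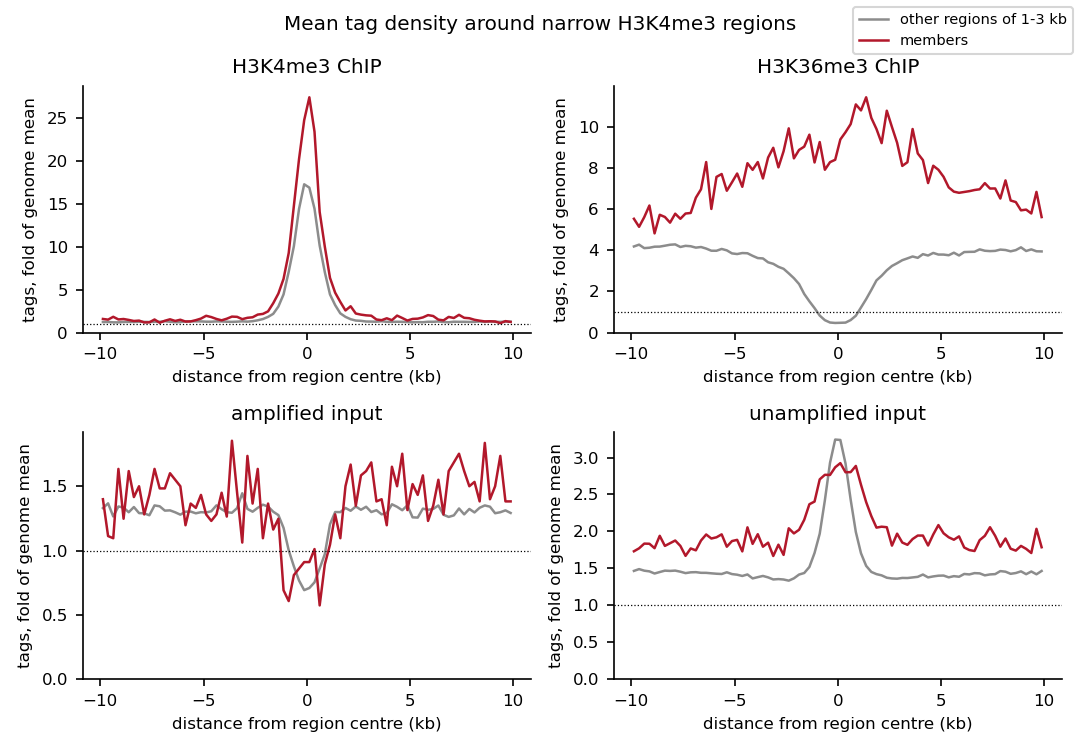
Lines give the mean tag density of each library, as a multiple of its autosomal genome mean, in steps of 250 bp from 10 kb before to 10 kb after the centre of members (red, n = 231) and other narrow regions (grey, n = 7485). H3K4me3 peaks at 27.4 times the genome mean in members and 17.3 times in the others, H3K36me3 stays between 4.81 and 11.4 times in members and dips to 0.467 times in the others, and the unamplified input rises in both, to 2.92 and 3.24 times.

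Inside the members the tags of the 4 libraries were spread differently. When each member was turned so that its richer flank was on the right, 64.0% of H3K36me3 tags (11599 of 18111, 63.3 to 64.7) lay right of the midpoint, against 49.7% of H3K4me3 tags (49.1 to 50.3) and 43.5% of unamplified input tags (42.6 to 44.4). The amplified input leaned about as far as H3K36me3, with 62.0% of its 389 tags (56.9 to 66.8), and its part in the result was not tested. With each region cut into 10 equal steps, H3K36me3 rose from 6.16% of its tags at the poorer edge to 17.3% at the richer edge. H3K4me3 was highest in the sixth step, at 14.9%, and fell to 5.20% and 3.96% at the edges. More than 50% of H3K36me3 tags lay right of the midpoint in 171 members (74.0%, 67.9 to 79.6), and more than 50% of H3K4me3 tags in 109 (47.2%, 40.6 to 53.8). The mean position of H3K36me3 tags was nearer the richer flank than that of H3K4me3 tags in 175 of 231 members, by a median of 283 bp over all members (interquartile range 16.7 to 541).

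This lean was not limited to the members. In the other narrow regions 65.5% of the 28469 H3K36me3 tags lay right of the midpoint. Within members the share was 69.2% (68.3 to 70.1) with 1 called flank, 57.3% (56.0 to 58.5) with both and 58.5% (56.3 to 60.7) with neither. It was 57.3% in members of 1 kb and 68.3% in those of 3 kb. Members of 1 kb also had fewer H3K4me3 tags on the richer side, 42.1% (40.3 to 43.9).

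**Figure D5:**
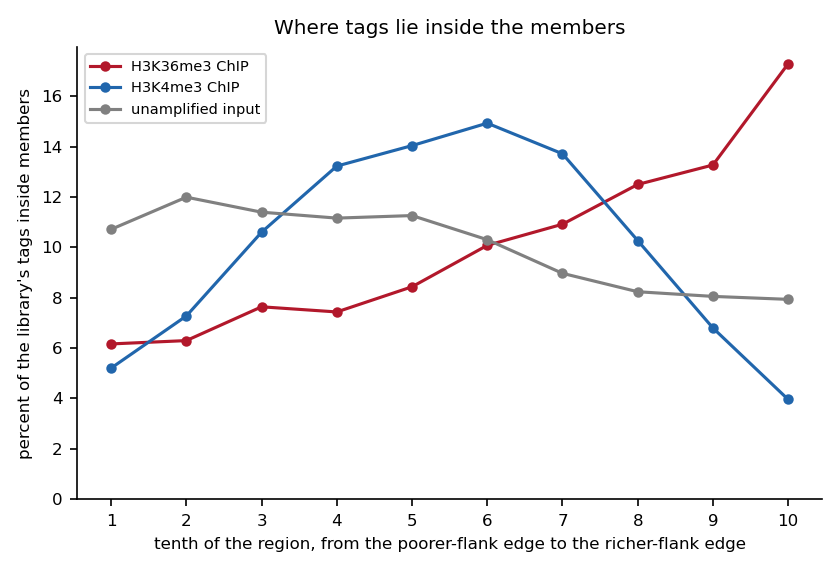
Lines give the percent of each library's tags inside members that fell in each of 10 equal steps across the region, from the edge at the poorer flank (1) to the edge at the richer flank (10). H3K36me3 (red) climbs from 6.16% to 17.3%, H3K4me3 (blue) is highest in the sixth step at 14.9%, and the unamplified input (grey) declines from 10.7% to 7.93%.

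By 1 kb bins, the marks peaked in the same bin about as often in members as in the other narrow regions. In the 106 members of 2 kb the same bin led for both marks in 53 (50%), and in the 63 members of 3 kb in 21 (33.3%), against 54.3% and 34.0% of the other narrow regions of those widths. Unrelated positions would also give about 50% and 33.3%. The other regions held medians of only 3 and 5 H3K36me3 tags, so their leading bin is uncertain. As a description, since the same bins chose the members, the pooled H3K36me3 ratio of the bin with the most H3K4me3 was 3.54 at 2 kb and 3.37 at 3 kb, and that of the remaining bins 2.93 and 3.15. Only 9 of these 63 had a middle bin without called H3K4me3, and that bin held 36.5% of the 1027 H3K36me3 tags of these 9. All 9 kept at least 15 H3K36me3 tags without it.

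Members had other H3K4me3 regions nearby more often than the remaining narrow regions did. Another region lay within 10 kb of 60 members (26.0%, 20.4 to 32.1) and of 13.04% of the others (12.3 to 13.8). Within 5 kb the shares were 16.02% (11.5 to 21.4) and 6.32% (5.78 to 6.89). The median distance to the next region was 27 kb for members and 49 kb for the others. Among 7973 pairs of consecutive H3K4me3 regions, at any distance, both were members in 11 (0.138%). Whether members stood together more or less often than their share of regions would give was not tested. Of 231 members, 18 had another member within 50 kb, in 9 pairs. These included pairs on chromosome 2 (77716001 to 77735000, 25003001 to 25048000 and 152378001 to 152429000) and a pair on chromosome 17 (34559001 to 34609000).

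Every autosome held members. Chromosome 11 held the most, 25 of 645 narrow regions (3.88%, 2.52 to 5.67), and chromosome 18 the fewest, 3 of 208 (1.44%, 0.298 to 4.16). The highest share was on chromosome 17, with 18 of 357 (5.04%, 3.02 to 7.85). The intervals of chromosomes 11 and 18 include the share of 2.99% over all autosomes, and that of chromosome 17 lies just above it.

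When H3K36me3 regions were called over the genome in 5 kb bins with the test used for flanks, 197 members (85.3%, 80.04 to 89.6) overlapped one, against 28.8% of the other narrow regions. The bins include the members' own tags, so the contrast is a description. The regions that members overlapped had a median width of 25 kb (interquartile range 15 to 55). It was 20 kb for the 120 overlapping members with 1 called flank, of which 103 (85.8%) had their centre within 5 kb of an end of the H3K36me3 region. For the 59 with both flanks called the median was 55 kb and 8 (13.6%) were near an end. Taking all 197 overlapping members together, 128 (65.0%) were near an end. The overlapping other narrow regions, all flank classes together, had a median of 45 kb, and 48.2% were near an end. Their share by flank class is not given here, so 48.2% cannot be set against 85.8% or 13.6%. The narrower an H3K36me3 region is, the larger the part of it that lies within 5 kb of its ends, so these shares also move with width. The flank classes were set by the same test on the same tags. Widths and shares near an end by class therefore follow in large part from the classes and are a description. Of the 18 overlapping members with neither flank called, 16 lay in an H3K36me3 region of a single 5 kb bin.

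The inputs bear on all of these ratios. The unamplified input stood at a median of 2.66 times its genome mean inside members and 2.68 times inside the other narrow regions. For the amplified input the medians were 0.974 and 0.649 times, but the median region of either set held only 1 such tag. Pooled over regions, the amplified input was nearly equal, at 0.818 times its genome mean in members and 0.764 times in the others. Of 231 members, 5 had unamplified input above 5 times the mean. They included chromosome 10 (80580001 to 80581000; 124 H3K4me3, 1 amplified input, 187 H3K36me3 and 66 unamplified input tags) and chromosome 2 (77734001 to 77735000; 25, 1, 176 and 63 tags). In 55 members the amplified input held no tag. No member had fewer than 21.4% or more than 78.3% of its H3K36me3 tags on the plus strand.

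Which regions were members depended on where the 1 kb grid began. With bins offset by 500 bp, 231 regions again met the rule, but 129 of the original members overlapped one of them, or 55.8% of each list. Of the rest, 41 then held under 15 H3K36me3 tags, 37 had a ratio below 1.5, 18 became wider than 3 kb and 6 met no H3K4me3 region. The 129 had a median ratio of 2.89, and the other 102 one of 2.05. The shares with both, 1 and neither flank called were 25.6%, 63.6% and 10.9% in the 129 and 26.5%, 62.7% and 10.8% in the 102.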

How the data were processed

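The authors deposited 1 list of placed tags per library (chromosome, position, strand sign), with mm8 named as the build per the submitters' processing notes. Which aligner was used is not given in the sources used here, nor is the length of the reads. All counts were made from these lists. Repeats were present in the H3K4me3 input alone, where collapsing to 1 tag for each position and sign left out 27.5% of the tags, as the other lists already held 1 each. Collapsing caps the tags a very dense place can show. Tags were shifted 75 bp along their sign, and bins started at position 1. Inputs were multiplied by 3.027 (H3K4me3) and 0.453 (H3K36me3), the ratios of library totals. Ratios of classes have 1 tag added to each side. So do those nearest the threshold, on the X chromosome and under changed processing. Other ratios of named regions and pooled ratios do not. Intervals of named regions and of shares are exact Clopper-Pearson 95% intervals. Flanks with at least 10 tags were tested.

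Members were named by fixed ranks: 8 by H3K36me3 tags over input, 5 by H3K4me3 per kb, 5 by H3K36me3 tags with neither flank called, 3 on each side of the ratio threshold, 3 by input density, 3 by flank contrast and 2 by ratio. The pairs of neighbouring members were chosen after their values were seen. The members, lists and ranks were chosen with earlier results of these data known. On simulated flanks with the real input means, among 15984 flanks, 87 of 100 raised 2-fold, 100 of 100 raised 4-fold and 3 of 15784 unchanged were called. The test of unequal flanks called 49 and 99 of 100 pairs. Unchanged here meant a ratio of 1 to scaled input, above the 0.245 of the emptier bins, with counting error alone. These rates therefore do not hold for a rise over the background of the real library. Computation used Python 3.11.15, numpy 2.4.6, pandas 2.3.3 and scipy 1.17.1.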

Additional observations from a re-analysis of the deposited data

Results flagged for a closer look

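The X chromosome took no part in the choice of members or in any comparison. The same thresholds there gave 10 regions of 279 narrow H3K4me3 regions (3.58%, exact binomial 95% interval 1.73 to 6.49), against 2.99% on the autosomes. These 10 regions held from 28 to 201 H3K36me3 ChIP tags (median 38) beside 10 to 68 unamplified input tags (median 36.5), and their ratios to scaled input ran from 1.68 to 6.35. They were drawn out as a signal above input in data outside the main measurement. The highest lay at 148839001 to 148842000, with 91 H3K4me3, 0 amplified input, 201 H3K36me3 and 68 unamplified input tags.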

How the results depend on the processing

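Scaling and the choice of input changed most. With the H3K36me3 input scaled on the emptier 10 kb bins, 598 regions met the rule, all 231 members among them; both flanks were called at 50.8%, 1 flank at 47.8% and neither at 1.34%. Against the amplified input 532 regions met it, and 73.9% had unequal flanks. Shares over all H3K4me3 regions under either setting are not given here, so these shares have no background beside them. A minimum of 30 H3K4me3 tags per bin gave a median of 63 tags per kb. Without a gap between bins 40.9% of members had another H3K4me3 region within 10 kb, and 16.02% of the members as chosen had one within 5 kb. Without the shift of tags 64.9% of H3K36me3 tags lay on the richer side. Members with no other H3K4me3 region within 11 kb, an alternative chosen after seeing the data, had both flanks called at 18.8%. The number of members lay between 154 and 276 under the other changes of grid, shift, thresholds and depth, among them tags thinned to 50% (201 members). Of the 31 ratios inside named regions, 29 left their counting interval with scaling on emptier bins (range 5.19 to 64.0) and 29 against the amplified input (1.82 to 493), and none did without the shift. The ranges given have 1 tag added to each side. The cause of each change was not tested. Only 26 narrow regions reached the ratio with under 15 H3K36me3 tags. No paired analysis was possible because each group had 1 library, and for the same reason no library could be left out.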
